A study of Saccharomyces cerevisiae with 6 samples.

Results

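The histone genes of the budding yeast Saccharomyces cerevisiae were followed on expression arrays. A probe set was taken where the array's annotation names only genes out of HTA1, HTA2, HTB1, HTB2, HHT1, HHT2, HHF1, HHF2, HHO1 and HTZ1, and a probe set that names both copies of a histone was kept as 1 row. This gave 9 of the 6776 probe sets in the table, which cover all 10 genes out of 5815 that the annotation names. HTB1, HTB2, HTZ1 and HHO1 each have a probe set of their own. The other 5 rows name both copies: 2 rows name HTA1 and HTA2 (H2A, probe sets 6236_i_at and 7358_s_at), 2 name HHT1 and HHT2 (H3, 7368_i_at and 8910_at), and 1 names HHF1 and HHF2 (H4, 8911_s_at). The H2A and H3 rows are told apart by these suffixes. For these rows the share of each copy in the signal is uncertain.

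The tested strain, MDC3, carried tra1-2ts, a temperature-sensitive allele of TRA1, and the strain it was set against, MDC1, carried wild-type TRA1. Tra1 is a shared subunit of SAGA and NuA4, a pair of coactivator complexes that acetylate histones. In both strains the allele sat on a centromeric LEU2 plasmid and HIS3 had replaced TRA1 on the chromosome; both are haploids of mating type a that also carry the marker alleles leu2∆1, his3∆200 and trp1∆63 as well as ura3-52, ade2-101 and lys2-801. Cells were grown in YPD (rich medium) at 30 °C and shifted to 37 °C, and total RNA was hybridized to 1 array per strain at 60, 90 and 120 min, so that each strain has 3 arrays. The replicates of a strain are thus its 3 times. Separate cultures are not mentioned in the labels, so p-values measure only the spread between these arrays, which may be technical apart from change with time. Values before the shift were not analysed here.

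The nucleosome wraps DNA around an octamer of the core histones H2A, H2B, H3 and H4. In budding yeast each core histone is encoded by a pair of genes, and the genes lie as divergent pairs that share a promoter region (HTA1 with HTB1, HTA2 with HTB2, HHT1 with HHF1, HHT2 with HHF2). Their mRNAs are polyadenylated, unlike most core histone mRNAs of animals, and are made mainly around the entry into S phase, when new chromatin is assembled; HTZ1 encodes the variant H2A.Z, which is placed at promoters by the SWR1 complex, and HHO1 encodes linker histone H1. SAGA acetylates mainly H3, and NuA4 mainly H4 and H2A.

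Signals were deposited as log2 values from RMA (robust multi-array average), which equalizes the distribution of probe intensities across arrays before they are summarized, so a change of all mRNA at once would not be seen. Array medians lay between 6.14 and 6.20, and any pair of arrays correlated across probe sets with Pearson's r from 0.971 to 0.996. All histone values, the lowest of which was 5.77, lay above the median of the 4 mouse control probe sets, 3.28. The mRNA level of TRA1 cannot tell the alleles apart, so the arrays hold no check of the strain labels. Of 7 genes that mark mating type a, all were called higher in tra1-2ts (limma adjusted p under 0.05), beside 18.9% of all tested rows. Their means were 5.33 to 12.96, against 4.78 to 11.56 in wild type. The 4 genes that mark mating type alpha had means of 3.73 to 6.72 in tra1-2ts and 3.50 to 6.23 in wild type. All 4 were higher in tra1-2ts, by 0.19 to 0.50, and 2 of them, SAG1 and MF(ALPHA)1, were called. The part of this in the histone results was not tested.

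**Figure D1:**
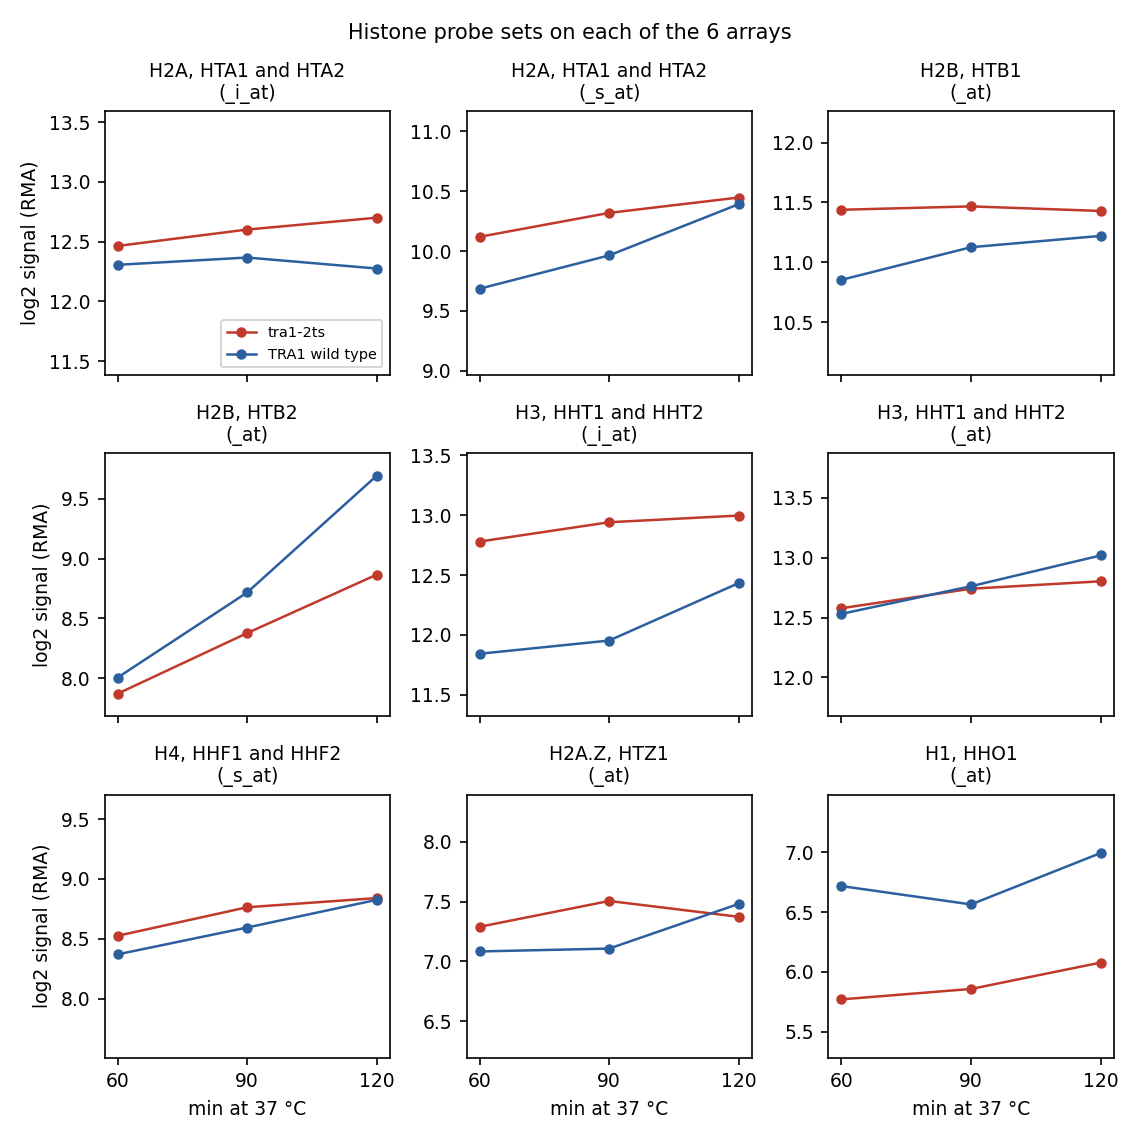
Log2 RMA signal (y axis, each panel spanning the same number of log2 units) against minutes at 37 °C (x axis) for the 9 histone probe sets; each point is 1 array, red for tra1-2ts and blue for TRA1 wild type. HTB2 climbed in both strains, to 8.87 in tra1-2ts and 9.69 in wild type at 120 min, and the tra1-2ts arrays lay above all wild-type arrays for the H3 _i_at row and below them all for HHO1.

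The first question was whether histone mRNA differed between the strains. One of the H3 probe sets rose 1.78-fold in tra1-2ts, HTB1 rose 1.30-fold and one of the H2A probe sets 1.21-fold, while HHO1, the linker histone gene, fell 1.81-fold. The other 5 rows, HTB2, HTZ1, the H4 row and the second rows of H2A and H3, did not pass the test. That is 3 rows higher and 1 lower of 9 at an adjusted p under 0.05 (limma, genotype alone, Benjamini-Hochberg over the 5851 probe sets that name a gene). Over all 5851 tested probe sets, 41% were called, 18.9% higher and 22.2% lower, so the histone count, 4 of 9, lies near the background and does not set histone genes apart. The split of all calls turned with the scaling, with 1104 higher and 1296 lower as deposited, 1240 and 1232 after quantile normalization, and 1368 and 1159 with arrays centred on their medians. The median difference of the histone rows was 0.17 on the log2 scale, against 0.01 over all tested probe sets. With the time point as a block, 5 of 9 histone rows and 45.7% of all were called.

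Histone H3 gave the largest rise among these rows and also the widest disagreement between rows. The H3 _i_at row read 12.78, 12.94 and 13.00 in tra1-2ts at 60, 90 and 120 min, against 11.84, 11.95 and 12.43 in wild type (log2 signal). Every tra1-2ts array lay above every wild-type array, a separation found for 3 histone rows and for 26.8% of all tested rows in this direction. The difference was 0.83 with a standard error of 0.15 (limma adjusted p = 0.00305). It passed without any 1 array and missed the threshold without both 90 min arrays (0.75, adjusted p = 0.0520).

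The H3 _at row, which names the same genes, read 12.58, 12.74 and 12.80 in tra1-2ts and 12.53, 12.76 and 13.02 in wild type. These arrays overlapped, and the difference was -0.06 with a 95% interval from -0.37 to 0.24 (adjusted p = 0.728). Its sign turned without the tra1-2ts array at 60 min (0.0014) and without the wild-type array at 120 min (0.06). The interval excludes the 0.83 of the first row.

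Within each array, the H3 _i_at row minus the _at row was 0.20, 0.20 and 0.19 in tra1-2ts at 60, 90 and 120 min, against -0.69, -0.81 and -0.59 in wild type. The height of such a value has no meaning between probe sets, but its shift between strains does not depend on it. The shift was 0.89, and the groups did not overlap. An exact permutation test over arrays, two-sided, gave p = 0.1, the smallest p that 3 arrays against 3 allow, and 0.3 adjusted over the 3 pairs of rows compared in this way; the pairs of H2A and of H3 rows were chosen after their values were seen. The 2 rows name HHT1 and HHT2 alike, so whether they differ in the copy or the part of the transcript they read was not tested.

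The H2A _i_at row read 12.46, 12.60 and 12.70 in tra1-2ts and 12.31, 12.37 and 12.28 in wild type. The groups did not overlap, although the highest wild-type array and the lowest tra1-2ts array lay close together. The difference was 0.27 ± 0.09 (SE, limma adjusted p = 0.0456). This call ended when any array other than the tra1-2ts 60 min array was left out, with adjusted p from 0.0711 without the wild-type 90 min array to 0.145 without the tra1-2ts 120 min array; in between were 0.082 without the wild-type 60 min, 0.101 without the wild-type 120 min and 0.134 without the tra1-2ts 90 min array.

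The H2A _s_at row read 10.12, 10.32 and 10.45 in tra1-2ts, against 9.69, 9.96 and 10.39 in wild type. Within each time tra1-2ts was higher, by 0.43, 0.36 and 0.06, but the arrays of the strains overlapped because both climbed. The difference of 0.28 ± 0.17 did not pass (adjusted p = 0.224; 0.0286 with a difference of 0.47 without the wild-type 120 min array). Within arrays, the H2A _i_at row minus the _s_at row shifted by -0.01 between strains (exact permutation p = 1, adjusted p = 1).

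The H2B genes have a probe set each, which allows the copies to be told apart. HTB1, the partner of HTA1, read 11.44, 11.47 and 11.43 in tra1-2ts and 10.85, 11.13 and 11.22 in wild type. All tra1-2ts arrays were above all wild-type arrays, and the gap narrowed from 0.59 at 60 min over 0.34 at 90 min to 0.21 at 120 min. The difference was 0.38 ± 0.11 (SE, limma adjusted p = 0.0234), and it missed the threshold without each of the tra1-2ts arrays in turn, at 0.0544, 0.0803 and 0.0552 without the 60, 90 and 120 min array.

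HTB2, the partner of HTA2, read 7.87, 8.38 and 8.87 in tra1-2ts, against 8.00, 8.72 and 9.69 in wild type. It was lower in tra1-2ts at each time, by 0.13, 0.34 and 0.83, while the strains' ranges overlapped over the 3 times. The difference of -0.43 ± 0.39 did not pass (limma adjusted p = 0.409; without the wild-type 120 min array it was 0.01), and with the time point as a block the same difference passed, with a standard error of 0.14 (adjusted p = 0.0387).

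HTB1 minus HTB2 within each array was 3.57, 3.09 and 2.56 in tra1-2ts at 60, 90 and 120 min, and 2.85, 2.41 and 1.53 in wild type. The value was larger in tra1-2ts at each time, by 0.72, 0.68 and 1.04, and shrank with time in both strains. Over all 3 times the groups overlapped, and the shift of 0.81 gave an exact permutation p = 0.2 (adjusted p = 0.3). With a smallest possible p of 0.1 this test could not have passed 0.05, and it does not use the pairing by time, so it does not decide whether the copies differed in their response.

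**Figure D2:**
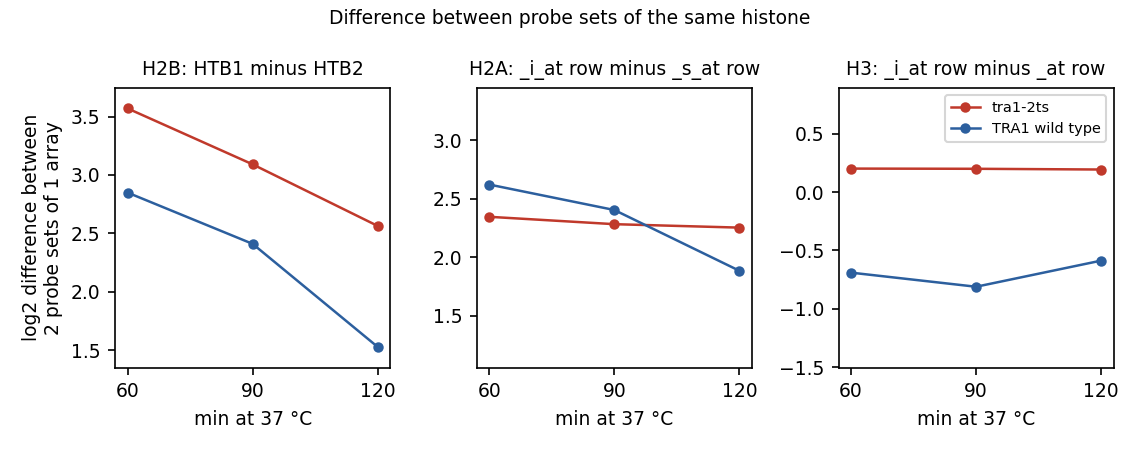
Log2 difference between a pair of probe sets of 1 histone on the same array (y axis) against minutes at 37 °C (x axis), red for tra1-2ts and blue for TRA1 wild type, 1 array per point. For H3 the lines stayed apart by 0.78 to 1.01, for H2B the tra1-2ts line lay above by 0.68 to 1.04 while both fell, and for H2A they crossed.

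The H4 row read 8.52, 8.76 and 8.84 in tra1-2ts and 8.37, 8.59 and 8.82 in wild type. The arrays overlapped. The difference was 0.11, with a 95% interval from -0.20 to 0.42 (limma adjusted p = 0.532), and it was -0.0003 without the wild-type 60 min array. HTZ1, the H2A.Z gene, read 7.29, 7.51 and 7.37 in tra1-2ts, against 7.08, 7.11 and 7.48 in wild type. It was higher in tra1-2ts at 60 and 90 min and lower at 120 min, and the difference of 0.17 had an interval from -0.12 to 0.45 (adjusted p = 0.323). Without the wild-type 120 min array it was 0.29 (adjusted p = 0.0591), and it was 0.095 without the wild-type 60 min, 0.11 without the wild-type 90 min and 0.11 without the tra1-2ts 90 min array.

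HHO1, which encodes linker histone H1, was the only one of the 9 rows called lower in tra1-2ts by the test of genotype alone; with the time point as a block HTB2 was called lower as well. It read 5.77, 5.86 and 6.08 in tra1-2ts and 6.72, 6.56 and 6.99 in wild type. Every tra1-2ts array was below every wild-type array, which held for 27.4% of all tested rows in this direction. The difference was -0.86 ± 0.13 (SE, limma adjusted p = 0.00134), and it passed without any 1 array and without the arrays of any 1 time. Ranked from the lowest, it was number 279 of the 5851 differences, while the 0.83 of the H3 _i_at row was number 219 from the highest.

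**Figure D3:**
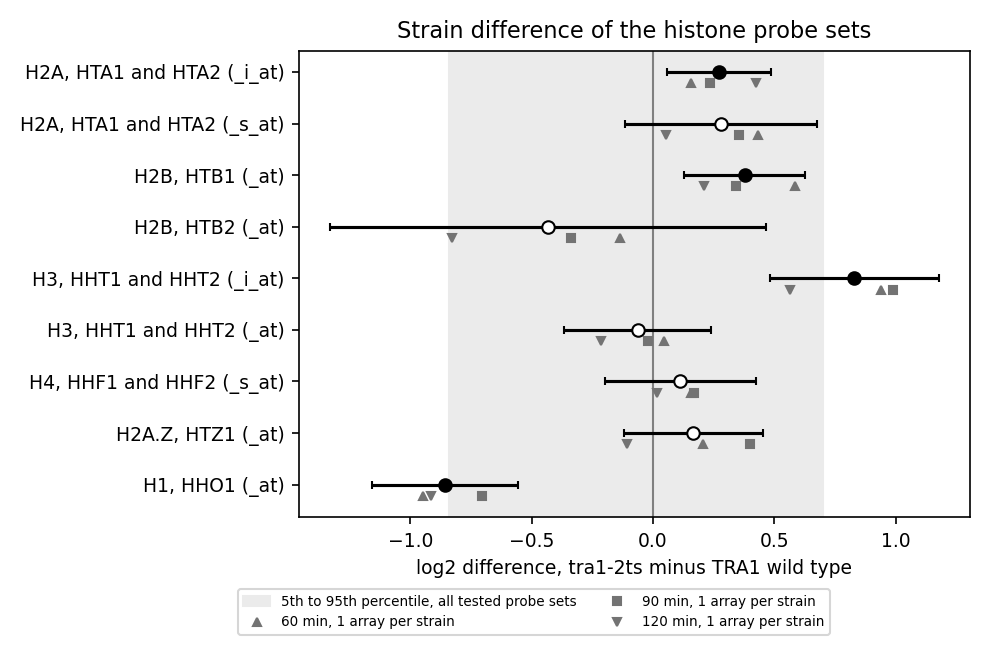
Log2 difference, tra1-2ts minus TRA1 wild type (x axis), for the 9 histone probe sets; circles are limma estimates over 3 arrays per strain with 95% intervals, filled where the adjusted p is under 0.05, grey marks are the differences at single times, and the band spans the 5th to 95th percentile of all tested probe sets (-0.84 to 0.70). Only the H3 _i_at row and HHO1 lie outside the band, at 0.83 and -0.86.

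The second question was how the histone genes moved between 60 and 120 min at 37 °C. All 9 rows had a positive slope in a fit of genotype and of minutes shared by the strains, but HTB2 was the only one to pass the test. Its slope was 1.34 per 60 min on the log2 scale with a standard error of 0.16, which is 2.53-fold (limma adjusted p = 0.0347), the second highest of 5851 slopes after that of RNR1. From 60 to 120 min HTB2 climbed 1.99-fold in tra1-2ts and 3.22-fold in wild type. Over all tested probe sets 0.188% passed this test, 4 with a rise and 7 with a fall. The HTB2 call ended without the tra1-2ts array at 60 min (adjusted p = 0.122) or 90 min (0.0926) and without the wild-type array at 60 min (0.129) or 120 min (0.188).

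The median slope of the histone rows was 0.36 per 60 min, against -0.01 over all tested rows, 47.4% of which had a positive slope. The values stepped up from 60 to 90 and again to 120 min in both strains for 5 of 9 rows (the H2A _s_at row, HTB2, both H3 rows and the H4 row), which was so for 5.78% of all tested rows. The same 5 had an unadjusted p under 0.05 for the slope, as did 15.7% of all. Rows of the same histone share transcripts and are not independent of each other. After HTB2 came the H2A _s_at row with a slope of 0.52 ± 0.12 (SE, adjusted p = 0.105), the H3 _i_at row with 0.40 ± 0.13 (0.2), the H4 row with 0.39 ± 0.10 (0.14) and the H3 _at row with 0.36 ± 0.10 (0.171). The slopes of HHO1, HTZ1, HTB1 and the H2A _i_at row were 0.29, 0.24, 0.18 and 0.10, with adjusted p from 0.323 to 0.674. Without the wild-type 120 min array the slope was 0.22 for the H3 _i_at row, 0.18 for HHO1, 0.076 for HTZ1 and 0.10 for HTB1. HTB1 had 0.030 when the wild-type 60 min array was left out, 0.28 when that of tra1-2ts was, and 0.31 in the absence of the tra1-2ts 120 min array, where HTZ1 had 0.40. The H2A _i_at row ranged from 0.015 without the tra1-2ts 60 min array to 0.21 without the wild-type 120 min array, with 0.030 without the tra1-2ts 120 min array.

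Taken by strain, the median slope of the histone rows was 0.24 in tra1-2ts and 0.46 in wild type per 60 min. Over all tested rows the medians were -0.02 and -0.003. HTB1 had slopes of -0.01 in tra1-2ts and 0.37 in wild type, and the H2A _s_at row 0.33 and 0.71. The H2A _i_at row, with 0.24 in tra1-2ts and -0.03 in wild type, and HHO1, with 0.31 and 0.28, went the other way. The difference between the slopes was tested with limma, and 0 of 5851 rows passed (0%; 408 rows, 6.97%, at an unadjusted p under 0.05). HTB2, with 1.00 in tra1-2ts and 1.69 in wild type, had the smallest p among the histone rows (difference -0.69 ± 0.20, SE, limma adjusted p = 0.684). A difference in the time course of any histone row between strains was therefore not shown; this fit leaves 2 residual degrees of freedom.

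**Figure D4:**
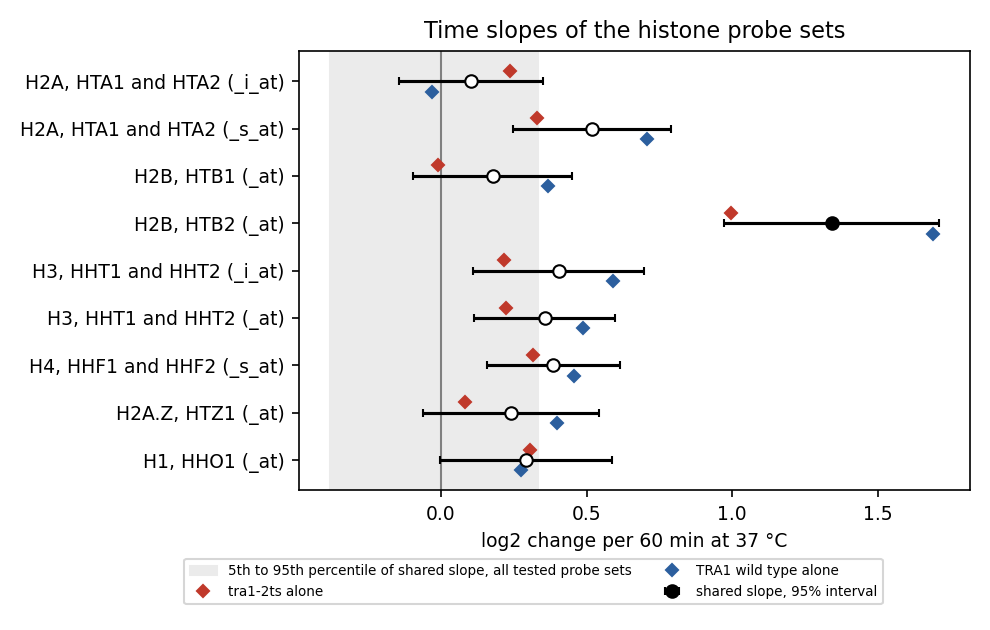
Log2 change per 60 min at 37 °C (x axis) for the 9 histone probe sets; circles are the slope shared by both strains with its 95% interval, filled where the adjusted p is under 0.05, red and blue diamonds are the slopes of tra1-2ts and of TRA1 wild type alone, and the band spans the 5th to 95th percentile of all shared slopes (-0.38 to 0.33). HTB2 stands at 1.34, with 1.00 in tra1-2ts and 1.69 in wild type.

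The slopes of 3 lists of cell cycle genes were set beside those of the histones. Over all tested rows 47.4% had a positive slope and 0.188% passed the time test, 4 with a rise and 7 with a fall. Of 28 measured genes of the G1/S transition and S phase, 27 had a positive slope, with a median of 0.40 per 60 min; 2 passed the time test, RNR1, the large subunit of ribonucleotide reductase (slope 1.78, limma adjusted p = 0.00296), and PCL1, a G1 cyclin (0.93, 0.0417). Of 15 genes expressed from M to G1 only 2 had a positive slope, the median was -0.29, and 2 passed with a fall: the chitinase gene CTS1 (-0.77, 0.039) and the glucanase gene DSE4 (-1.05, 0.0347), both of which serve the separation of daughter cells. Of 14 G2/M genes 10 had a positive slope, with a median of 0.10, and none passed. RNR1 and DSE4 were named after their values were seen. Median slopes of the G1/S list were 0.28 in tra1-2ts and 0.42 in wild type. The part of cell cycle position in the histone values was not tested.

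Between the strains, the counts of called genes in the following lists are to be read against the 18.9% of all tested rows called higher and the 22.2% called lower. The G1/S list had 2 rises, PCL1 (1.57 ± 0.28, SE) and the cyclin gene CLN1 (1.08 ± 0.20), and 7 falls of 28, among them PRI2, a primase subunit (-0.63), and the flap endonuclease gene RAD27 (-0.82), with a median of -0.12. With the time point as a block RNR1 (0.62) was called too (limma adjusted p = 0.00154). One of the 7, CDC21, lay under the mouse controls in both strains and was named after its values were seen. Of the 14 G2/M genes 2 rose, BUD8 (0.37) among them, and 4 fell, among them SWI5 (-0.67), KIN3 (-0.46) and BUD4 (-0.47). KIN3 lay under the mouse controls in tra1-2ts and near them in wild type, and SWI5 was near them in tra1-2ts (3.42, against 4.09 in wild type), so the sizes of these differences are uncertain. Of the 15 M/G1 genes 1 rose, ASH1, a repressor of mating type switching in daughter cells (0.64), and none fell. CTS1 (0.62), PCL9 (-0.38) and PCL2 (0.35) of this list did not pass. With the time point as a block 4 of the 15 rose and 2 fell, beside 1260 called higher and 1413 lower of all 5851 tested rows.

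**Figure D5:**
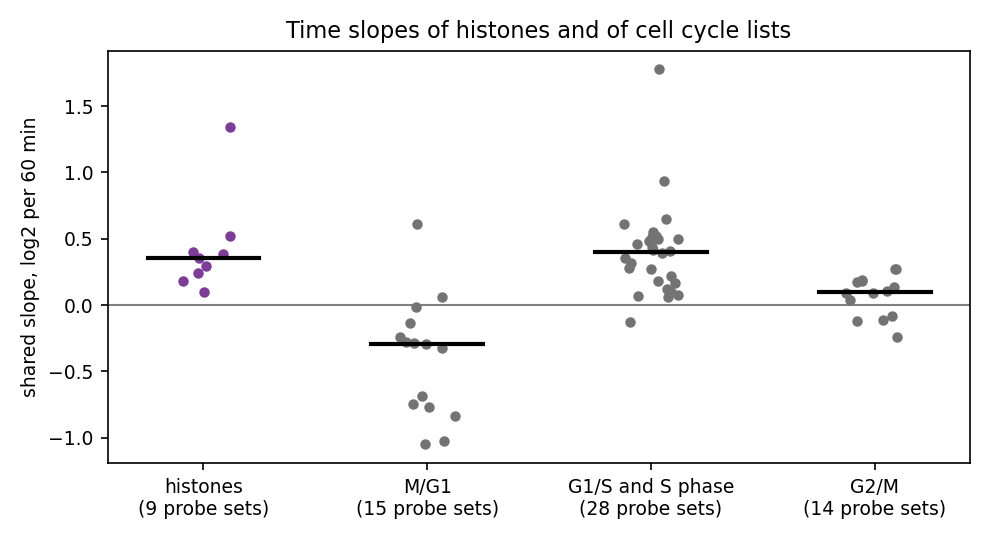
Slope shared by both strains in log2 units per 60 min at 37 °C (y axis) for the histone probe sets and 3 lists of cell cycle genes (x axis); each point is 1 probe set and bars are medians. The medians are 0.36 for histones, -0.29 for M/G1, 0.40 for G1/S and S phase, and 0.10 for G2/M.

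Of 12 regulators of histone transcription, none rose and 3 fell in tra1-2ts, with a median difference of 0.03, beside the 22.2% of all tested rows called lower. SWI6, a subunit of the G1/S factors SBF and MBF, had a mean of 4.25 ± 0.05 in tra1-2ts and 4.57 ± 0.12 in wild type (SD, n = 3 arrays each; limma adjusted p = 0.0271). HIR2, of the HIR complex that represses histone genes outside S phase, was at 5.60 in tra1-2ts and 5.91 in wild type, a fall of 1.24-fold, and ASF1, a chaperone of H3 and H4, fell 1.40-fold. SPT21, which activates histone genes with Spt10 and read near the mouse controls (3.56 in tra1-2ts and 3.26 in wild type), had a difference of 0.29 that did not pass (adjusted p = 0.106; 0.036 with the time point as a block). SPT10 itself read 2.81 in tra1-2ts and 2.85 in wild type, under the mouse controls, so its level was not resolved; it was named after its values were seen.

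Genes of histone chaperones and nucleosome assembly were called in 1 direction. Of 20, which share 6 genes with the regulators, 7 fell and none rose in tra1-2ts (limma), with a median of -0.11. The strongest by p were NHP6A, an HMG protein that works with FACT (-0.49), KAP123, an importin that carries H3 and H4 (-0.56), CAC2 of chromatin assembly factor 1 (-0.60), and NAP1, a chaperone of H2A and H2B (-0.31). HIR2 and ASF1 are among the 7 and were counted above with the regulators, ASF1 also in the G1/S list. The 13 genes that were not called went in both directions, from CHZ1 (-0.31) to HIR1 (0.21). Both were named after their values were seen. The share that fell is to be read against the 22.2% of all tested rows called lower. That background moved with the scaling, from 1296 rows as deposited to 1232 after quantile normalization and 1159 with arrays centred on their medians. The list was not recounted under these scalings. With the time point as a block 8 of the 20 were called lower, beside 1413 of all 5851 tested rows.

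Among the genes that place or modify histones, those called went in both directions, at shares near or under the 41% called over all tested rows. Of the 13 SWR1 complex genes 2 rose, the bromodomain gene BDF1 (1.22 ± 0.14, SE) and ARP6 (0.45), and 2 fell, SWC5 (-1.12 ± 0.14) and RVB1 (-0.42), beside the 0.17 of HTZ1, which did not pass. Of 8 acetyltransferase genes 2 rose, ESA1, the catalytic subunit of NuA4 (0.51), and HAT1 (0.49), and 1 fell, ELP3 (-0.60); RTT109, which acetylates new H3, had 0.21 and did not pass. Of 12 deacetylase genes 2 rose, HST4 (0.36) and HDA2 (0.28, at 3.33 in tra1-2ts and 3.05 in wild type; the second lies under the mouse controls, so the size is uncertain), and 1 fell, SIR2 (-0.62), while HST2 (-0.19) did not pass.

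Of 6 genes linked to the removal of excess histones, 4 were called, beside the 41% of all tested rows: TOM1, a ubiquitin ligase (0.59), and the ubiquitin-conjugating enzyme gene UBC4 (0.28) rose, and its close relative UBC5 (-1.05) and SNL1 (-0.53) fell. CSE4, which encodes the centromeric variant of H3, was at 6.92 ± 0.06 in tra1-2ts and 6.82 ± 0.13 in wild type (SD, n = 3 arrays each), and did not pass (limma adjusted p = 0.437).

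The nearest protein-coding genes on the chromosome were compared too, 1 on each side of each divergent pair and of HTZ1 and HHO1, in the gene order of the RefSeq table. Of these 12 neighbours 1 rose and 1 fell in tra1-2ts (limma), beside 41% called over all tested rows. PLB3, a phospholipase B gene beside HTZ1, was 1.19 higher, and UTP20, a gene of ribosome assembly beside HTA2, 0.40 lower. IPP1, beside HHT1, and SIW14, beside HHT2, had 0.20 and -0.25 and did not pass. The neighbours of HTB1 and HTA1, CRF1 and ADK1, had -0.02 and -0.11, and those of HHO1, TBF1 and NAN1, -0.04 and -0.19. None of these 4 passed. CRF1 read near the mouse controls (3.33 in tra1-2ts and 3.35 in wild type), so the size of its difference is uncertain. The neighbours' median slope was -0.06 per 60 min, and 4 of 12 slopes were positive, beside 47.4% over all tested rows.

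The 7 core histone rows were averaged without weights, so H2A, H2B and H3, with more rows than H4, count more. HTB2 had the largest rise among them from 60 to 120 min, 1.00 in tra1-2ts and 1.69 in wild type. The mean of the 7 rows was 10.83, 11.03 and 11.15 in tra1-2ts at 60, 90 and 120 min, and 10.51, 10.78 and 11.12 in wild type. Among 5664 other probe sets that name 1 gene, those most like this course by Pearson's r over the 6 arrays were the uncharacterised YPL108W (r = 0.998), the cyclin gene PCL2 (0.983), the ribosomal protein gene RPS12 (0.983), the myosin gene MYO4 (0.979) and the biotin synthesis gene BIO4 (0.977). The points are 6 arrays normalized together, and values this high among so many probe sets are a description of these arrays. Like the core mean, all 5 stepped up at each time in both strains. They were picked for their likeness to that mean over the same arrays, so this step is no separate result. None of the 5 passed the strain or the time test (limma).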

How the data were processed

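The authors deposited 1 log2 value per probe set and array, made with RMA and the package oligo per the submitters' processing notes, without a version. The choice of probe sets and a genome build are not given in the sources used here. Names come from the annotation of the array platform, and all gene IDs were matched to the RefSeq gene table of the S288C assembly: 5668 probe sets name 1 gene, 183 several and 925 none. No coordinates are given, because no build is named for the array.

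The 5851 probe sets that name a gene were fitted with limma 3.58.1 in R 4.3.3 (linear models, empirical Bayes, two-sided, Benjamini-Hochberg over all, threshold 0.05). The strain test fitted genotype over 6 arrays (4 residual degrees of freedom), the time test genotype and a shared slope (3), and the third test a slope per strain (2). Standard errors and 95% intervals use limma's moderated variance; an SD is over 3 arrays. The number of arrays limits the precision. Pairs of rows were compared with exact permutation tests (scipy 1.17.1). The fits were tested on simulated data.

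The number in an array's title marks its time, so the labels pair the arrays by time. Each array's deviation from its strain's mean correlated across probe sets with that of the other strain at the same time, with r of 0.300 at 60, 0.0599 at 90 and 0.324 at 120 min. Alternatives were this block, minutes as a covariate, other scaling, filters, moderation and thresholds, other rows, log2 of minutes, no genotype term, and arrays or times left out.

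All histone rows are named; of each list, up to 4 members with the smallest strain p; the 5 rows most like the core mean; and chromosome neighbours. List genes were read from the probe set with the highest mean among those that name 1 gene. Members and lists were chosen with earlier results of these data known.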

Additional observations from a re-analysis of the deposited data

How the results depend on the processing

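The paired analysis, with the time point as a block, called HTB2 lower between strains (-0.43, adjusted p = 0.0387) and changed no other strain call of a histone row. With minutes as a covariate HTB2 (-0.43, adjusted p = 0.0269) and the H2A _s_at row (0.28, adjusted p = 0.0427) were called. With all 6776 probe sets tested the H2A _i_at row (0.27) had adjusted p = 0.0521. At a threshold of 0.01, 1462 probe sets were called, 2 of them histone rows, and HTB1 (0.38) and the H2A _i_at row (0.27) were not. With quantile normalization over the tested rows the H3 _at row turned to 0.0013.

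With both 60 min arrays left out, HTB1 (0.27) and the H2A _i_at row (0.33) were not called, which left 2 histone rows. With both 90 min arrays left out, 1071 probe sets and 1 histone row were called, and HTB1 (0.40), the H2A _i_at row (0.29) and the H3 _i_at row (0.75, adjusted p = 0.0520) were not. With both 120 min arrays left out, the H2A _i_at row (0.20) was not called and the H3 _at row turned to 0.013. These fits have 2 arrays a strain.

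With 1 array left out at a time, 2 to 4 histone rows were called for strain. The differences ran from 0.27 to 0.46 for HTB1, 0.22 to 0.33 for the H2A _i_at row, 0.12 to 0.47 for the H2A _s_at row, -0.83 to 0.010 for HTB2, 0.095 to 0.29 for HTZ1, -0.18 to 0.061 for the H3 _at row (0.0014 without the tra1-2ts 60 min array) and -0.00030 to 0.23 for H4. The time test called 0 to 11 probe sets (655 to 1072 at an unadjusted p under 0.05 in limma) and 0 to 1 histone rows, with HTB2 slopes from 1.08 to 1.55.

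The time test called 17 probe sets with log2 of minutes, 20 with trend and robust moderation, and 18 with 1 probe set per gene. Without a genotype term limma called 0 probe sets (198 at an unadjusted p under 0.05) and 0 histone rows, HTB2 (1.34) included (adjusted p = 0.999); the strain difference then adds to the spread. Other causes were not tested. No alternative turned a histone slope. The difference between strain slopes did not turn with log2 of minutes, other scaling, moderation or 1 probe set per gene. It was not refitted with arrays left out, so its dependence on single arrays was not tested.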
